A study of Drosophila melanogaster with 16 samples.

Results

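The vacuolar H+-ATPase (V-ATPase) genes of Drosophila melanogaster were taken as all genes whose symbol begins with Vha, after summing each gene over its transcripts. There were 33 such genes with 72 transcripts among the 16074 genes of both deposited tables. All 33 were listed in the trisomy 2L table, which holds 15953 genes, and 28 in the metafemale table, which holds 13861 genes. Of the 33 genes, 6 lie on chromosome arm 2L, 2 on the X chromosome and 25 on the other autosomal arms. They code for 13 proteins of the V1 sector, 18 of the V0 sector and 2 accessory proteins.

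The V-ATPase is a rotary pump that moves protons across membranes. Its V1 sector lies in the cytosol and hydrolyses ATP in a head of A and B subunits, which turns the central rotor of D and F subunits. The peripheral stalks of E and G subunits, together with C and H, hold the head in place. In the membrane, the V0 sector carries protons through the a subunit as the ring of c and c'' subunits turns, with d and e subunits attached. These roles are known mainly from yeast and mammals. The pump acidifies lysosomes and endosomes in most cells, and in insects it also energizes ion transport at the apical membrane of Malpighian tubules and drives acid secretion in the midgut.

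Pools of about 20 intact larvae at the third instar gave the RNA of each sample, which was compared between trisomy 2L females and males, metafemales, and normal diploids, and in the aneuploids with and without ectopic MSL2. Trisomy 2L larvae, with 3 copies of 2L, came from mothers of the stock y; C(2L)dp; F(2R) bw crossed to Canton S males, and metafemales, with 3 X chromosomes and 2 sets of autosomes, from C(1)DX, ywf/winscy females crossed to Canton S males. For MSL2-trisomy 2L and MSL2-metafemale larvae, the fathers were instead homozygous for MSL2 transgenes on 2R, so these larvae differ from those without MSL2 in the paternal stock as well as the transgene, whose promoter is not given in the sources used here. Normal diploids were of the Canton S stock and shared neither attached nor free chromosome arms with the aneuploids. The labels list 3 libraries for each of the 4 trisomy 2L groups and 2 for each of the 2 metafemale groups. Each table gives only 1 mean per group, so no value below has an error or a replicate number, no difference was tested between libraries, and the depth behind each mean is unknown. Diploids were sequenced with shorter, single-end reads and the MSL2 groups with paired-end reads. Libraries without MSL2 were made in both ways, and the sources used here do not state which of them entered the means of trisomy 2L and of metafemales.

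A check of the labels on msl-2 gave 177 CPM (CPM is the read count scaled to the mapped reads of the library) in MSL2-trisomy 2L females against 20.1 in trisomy 2L females, 266 against 52.8 in the males, and 95.3 in MSL2-metafemales against 8.31 in metafemales. The noncoding RNA roX1, which is part of the male dosage compensation complex, stood at 566 and 242 CPM in the diploid male columns and at no more than 23.4 CPM in any female column. Both tables list a diploid female and a diploid male mean, and these did not match between tables. Of the 20 Vha genes described next, 9 were at least 1.5-fold apart between the diploid female means of the tables, as were 49.4% of all genes, and 12 between the diploid male means, as were 55.3% of all genes. Levels were therefore compared only within a table.

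Of the 33 genes, 20 reached 1 CPM or more in every one of the 10 group columns. A further 12 stayed below 1 CPM in all 6 female columns and reached at least 1 CPM in males, and Vha68-1, a further gene for the catalytic A subunit, stayed at 0.0389 CPM or less and is not described further. Summed over the 20 genes, the level was 6995 CPM in diploid females, 6338 in diploid males, 7215 in trisomy 2L females, 7347 in the males of that genotype, 9284 in MSL2-trisomy 2L females and 7667 in MSL2-trisomy 2L males. In the metafemale table the sum was 5553 CPM in diploid females, 4823 in diploid males, 7557 in metafemales and 8114 in MSL2-metafemales. Diploid males had the lowest sum in each table, and MSL2-trisomy 2L females and MSL2-metafemales the highest. The columns themselves have unequal totals, and as a share of its column the sum was 0.974% in MSL2-trisomy 2L females, the highest of that table, but 0.764% in MSL2-metafemales against 0.856% in metafemales. MSL2-trisomy 2L females held the highest mean of their table for 12 of the 20 genes, also with columns set to the same total. MSL2-metafemales held the highest for 11 of 20, but for 2 of 20 at equal totals, where metafemales held 14. Diploid males held the lowest for 12 and 15 of 20, and for 9 and 14 at equal totals. How often genes outside the 20 were highest or lowest in these columns was not counted. In whole larvae, fewer cells of a type and less RNA per cell cannot be told apart.

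**Figure D1:**
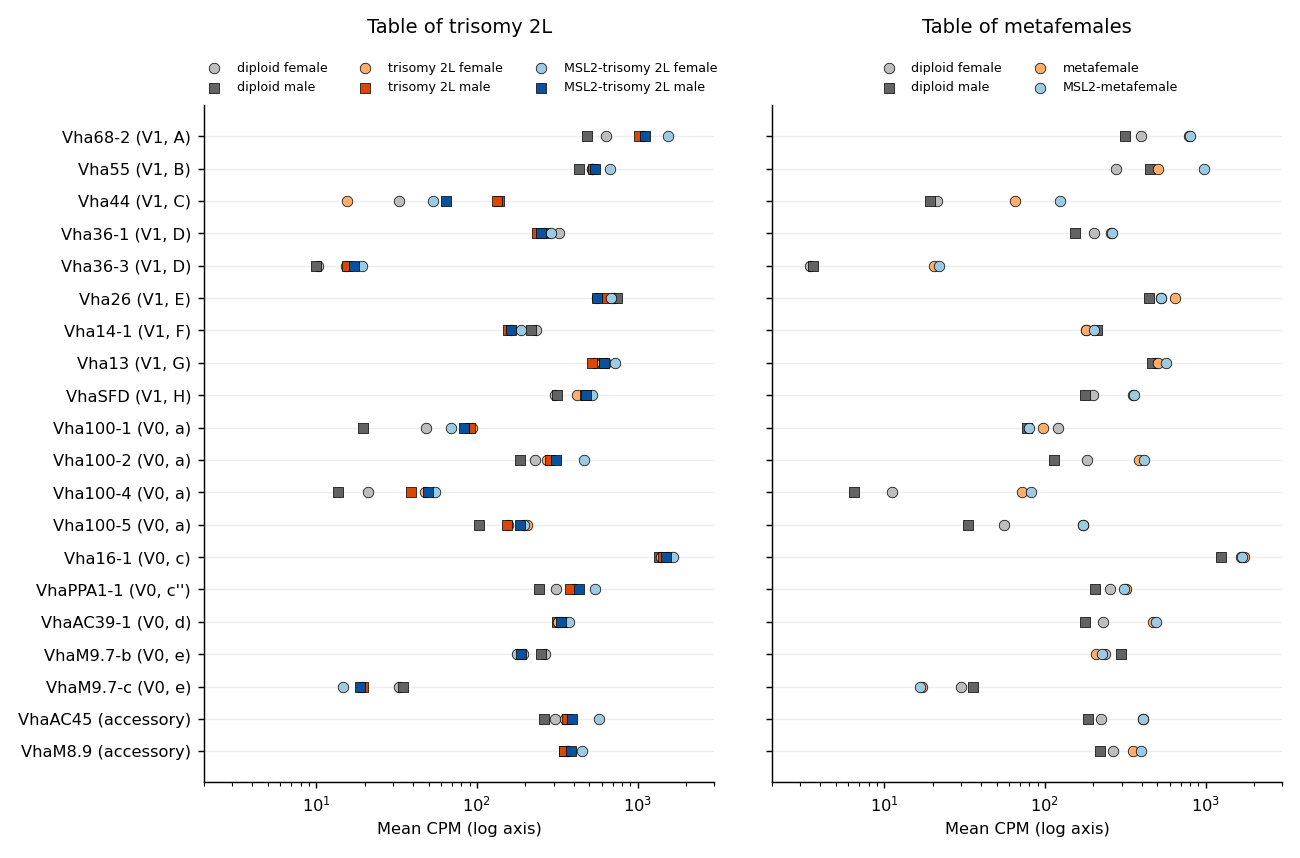
Mean CPM of the 20 Vha genes expressed in both sexes, on a log axis, with 1 point for each group mean and the sector and subunit of each gene in brackets. The panels show the tables of trisomy 2L and of metafemales, and no error bars exist because only means were deposited. Vha16-1 lies furthest right in all 10 columns, at 1238 to 1736 CPM, while Vha44 spreads from 15.6 to 137 CPM within the trisomy 2L panel.

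Levels of different genes were compared per kilobase of transcript. On this scale Vha13, the G subunit of the peripheral stalk, was first in all 10 columns, from 656 CPM per kb in diploid males of the metafemale table to 1033 in MSL2-trisomy 2L females. Vha16-1, the main proteolipid of the c ring, followed with 435 to 611 CPM per kb. Only in MSL2-trisomy 2L females was Vha68-2 above it, at 627 against 586 CPM per kb. Vha36-3, a minor D subunit gene, was among the lowest with 2.86 to 19.2 CPM per kb, as was Vha100-4, an a subunit gene, with 2.39 to 29.9 CPM per kb. The c ring has several c subunits per pump while most other subunits occur in smaller numbers, so these levels give the order of the RNAs and not of the proteins.

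Values below are in CPM, in the order diploid female, diploid male, trisomy 2L female, trisomy 2L male, MSL2-trisomy 2L female and MSL2-trisomy 2L male, and for the metafemale table in the order diploid female, diploid male, metafemale and MSL2-metafemale. In the V1 head, the catalytic A subunit gene Vha68-2 had means of 638, 485, 1078, 1016, 1552 and 1104 CPM, and of 397, 313, 790.1 and 795 CPM in the metafemale table. It lies on 2L (Release 6 build, positions 12974322 to 12978607), and all 6 aneuploid means were above the diploid means of the same table. The B subunit gene Vha55 (3R, 12623762 to 12627829) had means of 516, 434, 519, 528, 676 and 542 CPM, and of 277, 452, 508 and 978 CPM. Within each table, an MSL2 female mean was the highest of its columns, as it also was at equal column totals.

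The central rotor is coded by Vha36-1 and Vha36-3 for subunit D and by Vha14-1 for subunit F. Vha36-1 had means of 325, 265, 263, 237, 288 and 252 CPM, and of 201, 153, 257 and 262 CPM. For Vha14-1 the means were 234, 217, 164, 157, 188 and 162 CPM, and 180.3, 211, 180.3 and 202 CPM. Both rotor genes were lower in trisomy 2L than in diploids, by less than 1.5-fold. Vha36-3, on the X (2579091 to 2580560), had 10.3, 9.99, 15.3, 15.6, 19.2 and 17.1 CPM, and 3.44, 3.63, 20.3 and 22.1 CPM. All 6 of its aneuploid means were higher than the diploid means, but the diploid female level itself differed between the tables by a log2 of 1.58, the widest gap among the 20 genes in females.

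Among the stalk and regulatory subunits, the E subunit gene Vha26 had means of 712, 742, 559, 646, 684 and 558 CPM, and of 530.3, 444, 643 and 529 CPM. Vha13 had 635, 598, 535, 518, 727 and 620.5 CPM, and 483, 462, 506 and 567 CPM. The H subunit gene VhaSFD, on 2L (16722883 to 16727826), had 304, 315, 418, 469, 517 and 477 CPM, and 200.3, 177, 351 and 356 CPM. VhaSFD was thus higher in every aneuploid mean than in the diploids of its table, and the peripheral stalk genes were not. Vha44 (2R, 16324813 to 16336637), the C subunit that joins V1 to V0, had 32.5, 137, 15.6, 133, 53.1 and 64.1 CPM, and 21.4, 19.2, 64.8 and 125 CPM. The order of its columns differed between the tables, and its diploid male means of the tables lay a log2 of 2.84 apart.

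Among V0 genes, Vha16-1 was nearly level, with 1517, 1361, 1386, 1429, 1664 and 1492 CPM, and 1654, 1238, 1736 and 1683 CPM. The c'' gene VhaPPA1-1 had 308, 244, 399, 377, 544 and 432 CPM, and 254, 203, 319.9 and 308 CPM. The d subunit gene VhaAC39-1, on the X (3880748 to 3882967), had 335, 316, 317, 339.9, 376 and 335 CPM, and 229, 177, 469.6 and 493 CPM. VhaAC39-1 was close to diploid in trisomy 2L and above it in metafemales, while VhaPPA1-1 was above diploid in both. The small e subunit gene VhaM9.7-b had 265, 251, 194, 184, 177 and 187 CPM, and 235, 296, 208 and 225 CPM. VhaM9.7-c, another e subunit gene, had 32.8, 34.6, 19.3, 19.4, 14.8 and 18.9 CPM, and 29.9, 35.9, 17.2 and 16.8 CPM. Both e subunit genes were lower in all 6 aneuploid means than in the diploids of their table.

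There are 5 a subunit genes, 4 of them expressed in both sexes. Vha100-2 had 229, 184, 272, 284, 465 and 311 CPM, and 183, 114.7, 383 and 415 CPM. Vha100-5, on 2L (11738948 to 11744524), had 155, 104, 206, 153, 196 and 185 CPM, and 56.0, 33.1, 173 and 172 CPM. Vha100-4 had 21.0, 13.7, 47.3, 38.7, 55.0 and 49.7 CPM, and 11.1, 6.51, 72.5 and 81.7 CPM. These 3 genes were higher in each aneuploid group than in diploids of the same sex and table. Vha100-1 had 48.0, 19.7, 93.8, 90.3, 69.4 and 83.1 CPM, but 120.0, 77.7, 97.4 and 79.6 CPM in the metafemale table, where diploid females were highest. Vha100-2 made up 41.7% to 57.0% of the CPM per kb of transcript of all a subunit genes in the 10 columns. The share of Vha100-4 was 4.88% in diploid females and 8.02% in trisomy 2L females, and 3.23% in diploid females of the metafemale table against 10.6% in metafemales.

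The accessory protein gene VhaAC45 had 306, 261, 352, 362, 572 and 393 CPM, and 223, 186, 409 and 408 CPM. VhaM8.9, a relative of the mammalian prorenin receptor, had 371, 347, 362, 350.3, 448 and 385 CPM, and 263, 221, 351 and 396 CPM. In the trisomy 2L table both were highest in MSL2-trisomy 2L females.

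Trisomy 2L was compared with diploids of the same sex as a log2 ratio of means, for genes whose means averaged at least 1 CPM over the groups compared. In females, 20 Vha genes passed that minimum, the same 20 that are expressed in both sexes. At least 1.5-fold higher were 3 of them, against 25.4% of all 9657 genes, and 2 were as much lower, against 22.5%. Their median log2 ratio was -0.01, and that of all genes -0.05. The genes past the limit were Vha100-4 at 1.17, Vha100-1 at 0.97, Vha68-2 at 0.76, VhaM9.7-c at -0.76 and Vha44 at -1.06. The V-ATPase as a group stood where the whole transcriptome stood, with single genes on either side.

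In trisomy 2L males, 32 Vha genes passed the minimum, of which 7 were at least 1.5-fold higher and 10 lower. The shares over all 11916 genes were 23.1% and 32.4%. The median log2 ratio was -0.06 over the 32 genes and -0.17 over all genes. This median mixes genes of unlike behaviour, since the 20 genes expressed in both sexes had a median of 0.19, with 6 higher and 1 lower, and the 12 others a median of -0.89, with 1 higher and 9 lower. Among the 20, Vha100-1 was at 2.20, Vha100-4 at 1.495, Vha68-2 at 1.07, Vha36-3 at 0.65, VhaPPA1-1 at 0.63 and Vha100-2 at 0.62, and VhaM9.7-c was at -0.83. The value for Vha100-1 rests on a low diploid male mean, where its transcript r33467, which had 33.1 CPM in diploid females and 51.7 CPM in trisomy 2L males, was at 0.395 CPM. The same transcript had 61.8 CPM in the diploid males of the metafemale table.

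The 3 genes of the 20 on the trisomic arm had log2 ratios of 0.76 (Vha68-2), 0.46 (VhaSFD) and 0.40 (Vha100-5) in females and of 1.07, 0.58 and 0.56 in males. All 3 were above the median of all 2L genes, which was 0.33 over 1733 genes in females and 0.16 over 2271 genes in males. For the 15 members on the other autosomes the median was -0.13 in females, against -0.19 for all genes there, and 0.01 in males, against -0.30. Vha100-4 and Vha100-1, both on 3R, lay above every 2L member in both sexes.

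In metafemales the group stood apart from the transcriptome median. Of 20 Vha genes passing the minimum, 10 were at least 1.5-fold higher than in diploid females, against 18.4% of all 9754 genes, and 1 was lower, against 32.1%. Their median log2 ratio was 0.61 and that of all genes -0.21, and 18 of the 20 lay above the latter. The highest were Vha100-4 at 2.70, Vha36-3 at 2.56, Vha100-5 at 1.63, Vha44 at 1.597, Vha100-2 at 1.07 and VhaAC39-1 at 1.03. Next came Vha68-2 at 0.99, Vha55 at 0.88, VhaAC45 at 0.87 and VhaSFD at 0.81, while VhaM9.7-c was at -0.80. The V1 genes had a median of 0.81 and the V0 genes of 0.33. In trisomy 2L the order was the reverse, with V1 and V0 medians of -0.25 and 0.25 in females and of -0.05 and 0.56 in males.

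The X-linked members were above the median of all X genes (0.21, 1635 genes), and the 3 members on 2L, which has 2 copies in metafemales, were at 0.81 to 1.63 against a median of -0.30 for all 2L genes. The 15 members on the other autosomes had a median of 0.33, against -0.29 for all genes there, although VhaM9.7-c and Vha100-1 of these 15 lay below that level. The diploid female means used here were lower than those of the trisomy 2L table for the Vha genes, with a median log2 gap of -0.47, against 0.11 for all genes. The part of that gap in the metafemale ratios was not tested.

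**Figure D2:**
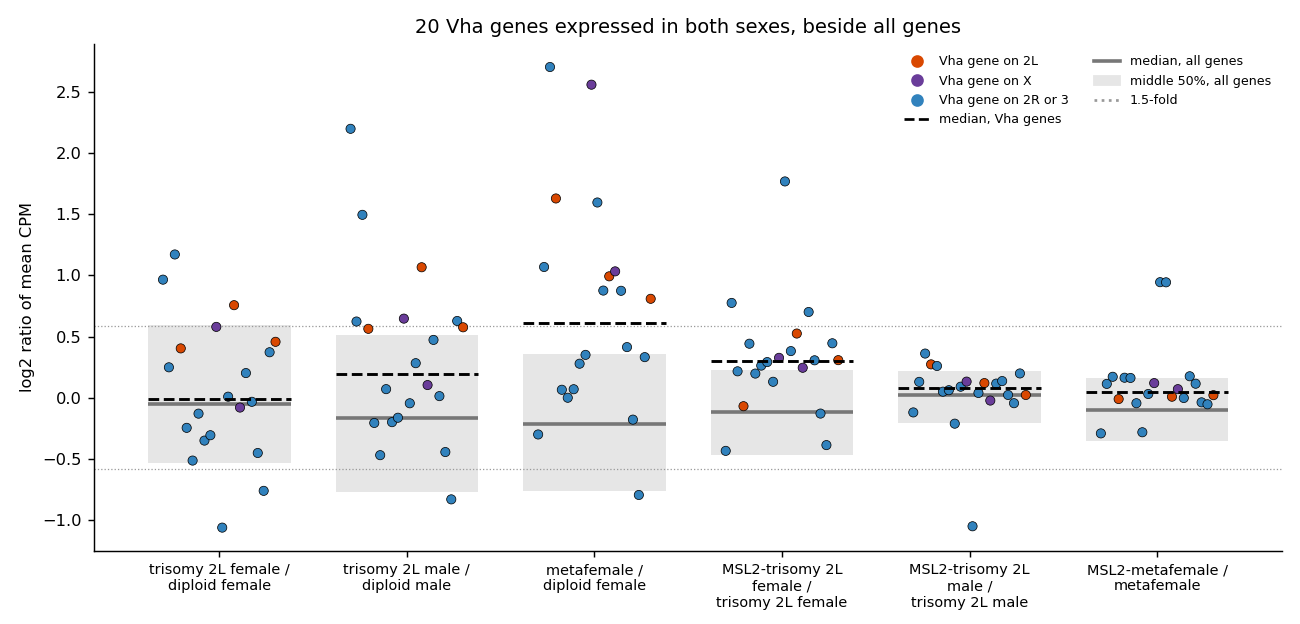
Log2 ratios of mean CPM for the 20 Vha genes expressed in both sexes, in 6 comparisons. Each point is 1 gene coloured by chromosome, the dashed line is the median of the 20 genes, the grey line and box are the median and middle 50% of all genes compared, and dotted lines mark 1.5-fold. The dashed line lies at 0.61 in metafemales and 0.30 in MSL2-trisomy 2L females, above grey lines at -0.21 and -0.12.

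Transcript length moved with these ratios. Over all genes, the median log2 ratio of trisomy 2L females to diploids was -0.34 for genes with a mean transcript length under 1000 nt, -0.14 from 1000 to 2000 nt, 0.10 from 2000 to 3000 nt and 0.21 at 3000 nt or more. In males these medians were -0.61, -0.23, 0.15 and 0.16, and in metafemales -0.52, -0.24, -0.07 and -0.10. The 4 Vha genes under 1000 nt (Vha13, Vha14-1, VhaM9.7-b and VhaM9.7-c) had medians of -0.48 in trisomy 2L females, -0.46 in males and -0.09 in metafemales. The 9 from 2000 to 3000 nt had medians of 0.40, 0.56 and 0.88. All 4 short genes were below diploid in trisomy 2L of both sexes. Single genes departed from this order. Vha44, at 2781 nt, had the lowest ratio in trisomy 2L females, Vha36-3, at 1171 nt, was above diploid in all 3 comparisons, and Vha100-1, at 2939 nt, was at -0.30 in metafemales. Diploids and MSL2 groups also differed in read length and read pairing, and the part of length or of library type in the ratios was not tested. In metafemales the Vha medians from the shortest class to the longest were -0.09, 0.64, 0.88 and 1.07, over 4, 6, 9 and 1 genes. The longest class thus held only Vha100-2.

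**Figure D3:**
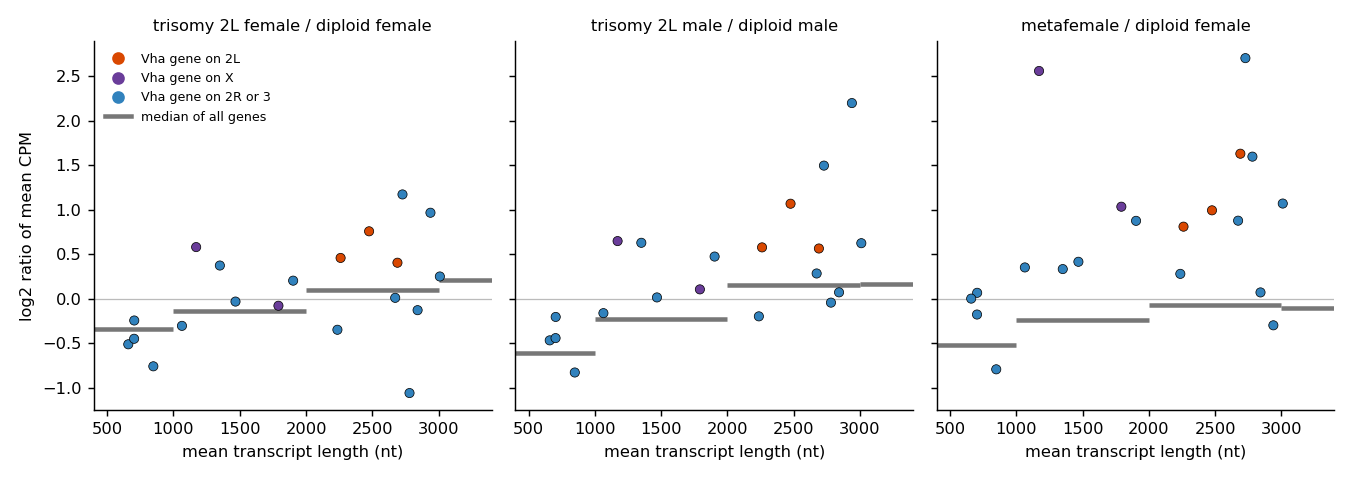
Log2 ratio of mean CPM against mean transcript length in nucleotides for the 20 Vha genes, in the 3 comparisons of aneuploids with diploids. Points are genes coloured by chromosome, and grey bars are medians of all genes in 4 classes of length. The grey bars climb from -0.34 to 0.21 in trisomy 2L females and from -0.61 to 0.16 in trisomy 2L males.

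MSL2 was compared within each aneuploid genotype. In trisomy 2L females, 3 of 20 Vha genes were at least 1.5-fold higher with MSL2, against 10.8% of all 9694 genes, and 0 lower, against 19.1%. The median log2 ratio was 0.30, against -0.12 for all genes, and 17 of the 20 were above the latter. Vha44 was at 1.77, Vha100-2 at 0.78 and VhaAC45 at 0.70, followed by Vha68-2 at 0.53, VhaPPA1-1 at 0.45 and Vha13 at 0.44. The lowest were Vha100-1 at -0.43 and VhaM9.7-c at -0.39. Over all genes, the 4 length classes had medians within -0.12 and -0.10 here. From the shortest class to the longest, they were 0.02, 0.04, 0.03 and 0.002 with MSL2 in trisomy 2L males. With MSL2 in metafemales they fell from 0.02 to -0.09, -0.15 and -0.18.

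In trisomy 2L males, 31 Vha genes passed the minimum, with 3 at least 1.5-fold higher, against 8.38% of all 11880 genes, and 2 lower, against 8.34%. The median was 0.09 over the 31 genes, 0.08 over the 20 expressed in both sexes and 0.02 over all genes. Of the 20, Vha44 alone passed the limit, at -1.05. The other 4 were male-limited genes, with Vha16-3 at 1.08, Vha68-3 at 0.76, Vha16-2 at 0.61 and Vha14-2 at -0.59.

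In metafemales, 2 of 20 Vha genes were at least 1.5-fold higher with MSL2, against 10.3% of all 9549 genes, and 0 were lower, against 13.3%. These were Vha44 at 0.95 and Vha55 at 0.94, both of V1. The median was 0.05, against -0.10 for all genes, and 18 of the 20 were above the latter. The MSL2-metafemale means sum to 1062340 CPM over all genes, more than any other column, against 882368 CPM in metafemales. With both columns set to the same total, the Vha median was -0.22 and that of all genes -0.37. Vha44 was therefore higher with MSL2 in both female genotypes and lower in males.

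In diploids, males and females were compared in each table. In the trisomy 2L table, 11 of 30 Vha genes were at least 1.5-fold higher in males, against 28.3% of all 10963 genes, and 2 lower, against 8.36%. In that of metafemales, 7 of 26 were higher, against 22.5% of 10842 genes, and 4 lower, against 17.7%. The male-limited genes made up 10 of the 11 and 6 of the 7, and they passed the minimum only through their male level. Among the 20 genes of both sexes the median log2 male/female ratio was -0.13 in the first table, against 0.15 for all genes, with 16 of 20 below 0. In the second it was -0.26, against -0.06, with 15 of 20 below 0. The 4 a subunit genes of these 20 were low in males in both tables. Vha100-1 was at -1.29 and -0.63, Vha100-4 at -0.62 and -0.77, Vha100-5 at -0.58 and -0.76, and Vha100-2 at -0.31 and -0.67. The -1.29 rests on transcript r33467, at 0.395 CPM in those males and 61.8 CPM in those of the metafemale table. These 4 genes are long, at 2690 to 3010 nt. All-gene medians under 1000 nt, from 2000 to 3000 nt and at 3000 nt or more were 0.16, 0.10 and 0.24 in the first table. In the second they were 0.25, -0.15 and -0.12, and the part of length was not tested. Vha44 was at 2.07 in males of the first table and at -0.16 in those of the second, and Vha55 at -0.25 and 0.71.

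Many V-ATPase subunits have a second gene that is read mainly in males. The 12 male-limited genes cover the A, D and F subunits of V1 and the a, c, c'', d and e subunits of V0, and every subunit with more than 1 Vha gene had at least 1 of them. None exceeded 0.575 CPM in a female column. Values are given for diploid, trisomy 2L and MSL2-trisomy 2L males, and for the diploid males of the metafemale table where the gene is listed. In V1, Vha68-3 had 28.9, 52.5, 88.7 and 55.0 CPM, and Vha36-2 had 9.27, 10.02, 11.9 and 13.0 CPM. Vha14-2 had 18.7, 10.3 and 6.86 CPM. These 3 genes took different directions, with Vha68-3 above its diploid level in both trisomy 2L columns and Vha14-2 below it.

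In V0, the a subunit gene Vha100-3 had 75.4, 27.0, 28.0 and 36.0 CPM, the highest diploid male mean of the 12. The d subunit gene VhaAC39-2 had 21.1, 11.1, 7.72 and 8.26 CPM, and the c'' gene VhaPPA1-2 had 12.2, 6.81, 9.09 and 10.7 CPM. The e subunit gene VhaM9.7-d had 13.1, 4.34, 4.03 and 7.10 CPM, and VhaM9.7-a had 2.11, 0.867 and 0.209 CPM. All of these genes were lower in trisomy 2L males than in diploid males. Of the c ring genes, Vha16-5 had 15.8, 15.1, 17.6 and 9.53 CPM, Vha16-3 had 17.02, 5.74, 12.1 and 0.331 CPM, Vha16-2 had 4.79, 1.78 and 2.71 CPM, and Vha16-4 had 3.06, 1.75 and 1.77 CPM. Only Vha16-5 of these 4 kept a trisomy 2L mean near the diploid one.

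Summed over the 12 genes, the level was 221 CPM in diploid males, 147 with trisomy 2L and 191 in MSL2-trisomy 2L males, while the female sums over the genes listed were 0.264 to 2.28 CPM. Over the 8 genes that the metafemale table also lists, these male sums were 193, 133 and 179 CPM, and the diploid male sum of that table was 140.1 CPM. In trisomy 2L males, 10 of the 12 were below diploid, 9 of them by at least 1.5-fold, with the lowest log2 ratios at -1.59 for VhaM9.7-d, -1.57 for Vha16-3 and -1.48 for Vha100-3. The others were Vha68-3 at 0.86, Vha36-2 at 0.11 and Vha16-5 at -0.07, and Vha68-3 and Vha16-5 are the 2 male-limited genes on 2L. Testis markers were also lower in trisomy 2L males than in diploid males. Of 17 listed spermatocyte and spermatid genes, 15 were found. Their summed level was 1668 CPM in diploid males, 1076 with trisomy 2L and 1178 in MSL2-trisomy 2L males. Without bol, which has no mean in the metafemale table, the sums were 1316, 967 and 1118 CPM, and 1486 CPM in the diploid males of that table. Of the 15, 9 were at least 1.5-fold lower and 2 higher in trisomy 2L males, against 32.4% and 23.1% of all genes. The median log2 ratio of the testis markers was -0.83, against -0.17 for all genes. With MSL2 in trisomy 2L males, 1 testis marker was higher and 4 lower (median -0.09), while of the male-limited Vha genes 3 were higher and 1 lower (median 0.22). Of all genes, 8.38% were higher and 8.34% lower in that comparison (median 0.02). The testis sum in the female columns was 2.24 to 17.8 CPM, and their part in the male-limited Vha ratios was not tested.

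**Figure D4:**
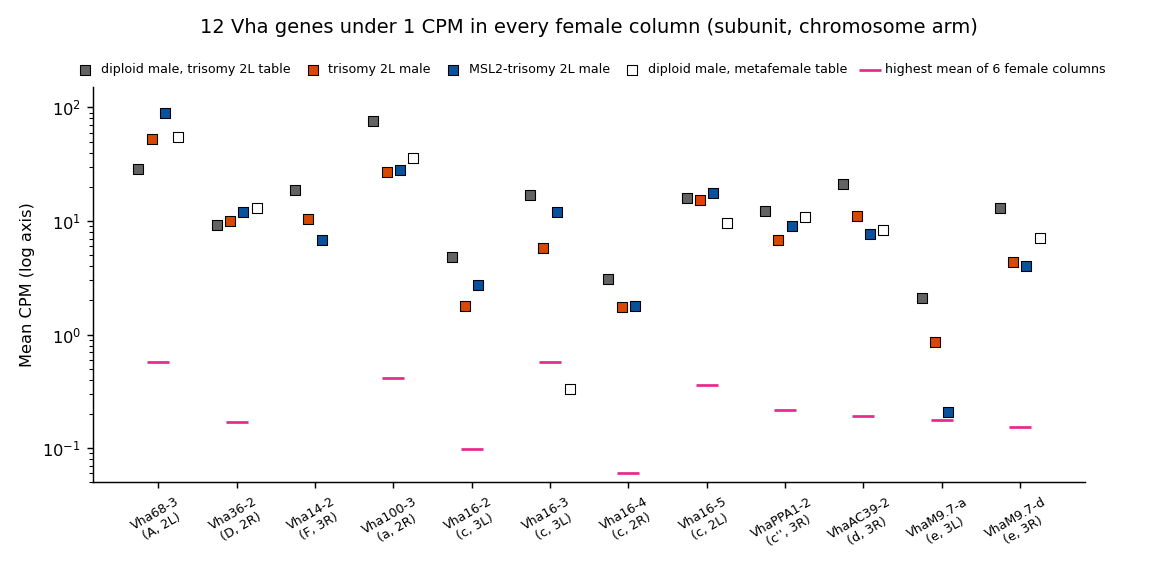
Mean CPM, on a log axis, of the 12 Vha genes under 1 CPM in every female column. Squares are the 4 male columns and the pink dash is the highest of the 6 female means, with the subunit and chromosome arm of each gene below its name. Orange squares (trisomy 2L) lie below dark grey squares (diploid) for 10 of the 12 genes, and above them for Vha68-3 and Vha36-2.

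As a share of all CPM per kb of its subunit, the male-limited gene was small. Vha68-3 was 5.69% of the A subunit in diploid males, 4.97% with trisomy 2L and 7.53% with MSL2 as well. It was 15.1% in the diploid males of the metafemale table. Vha100-3 was 18.7% of the a subunit in diploid males and 4.47% in trisomy 2L males, where Vha100-1 stood at 15.0% against 4.88%. Whether reads were shared among copies of similar sequence, such as the Vha16 genes, was not tested. Vha68-2 and Vha68-3 are also neighbours on the same strand, Vha68-3 spanning 12978786 to 12981293.

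Transcripts of the same gene differed between the sexes. Vha55 has 2 main transcripts that share their 3′ end at 12623762 and start at 12627829 (r28805) or 12627701 (r28806). In diploid females r28805 had 478 CPM and r28806 16.5 CPM, and in diploid males 145 and 274 CPM. Transcript r28806 was 63.1% of Vha55 in diploid males, 45.2% with trisomy 2L and 35.6% with MSL2 as well, and 86.5% in the diploid males of the metafemale table. In females r28806 was 3.20% in diploids, 6.50% in trisomy 2L, 12.6% in MSL2-trisomy 2L, 19.4% in diploids of the metafemale table, 8.28% in metafemales and 0.262% in MSL2-metafemales. The highest female share was 19.4% and the lowest male share 35.6%, among 10 means without replicates. How many transcripts of other genes separate the sexes in this way was not counted. The high Vha55 level of MSL2-metafemales came from r28805, at 931.3 CPM against 442 CPM in metafemales.

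For Vha44, r16412 and r16413 span 16324813 to 16333982, r16415 starts at the same 5′ position, 16333982, and r16411 and r16414 start upstream at 16336637. Transcript r16412 had 120 CPM in diploid males and 119 CPM in trisomy 2L males, but 13.6 CPM in MSL2-trisomy 2L males and 2.09 CPM in the diploid males of the metafemale table. In females it had 2.36 CPM in diploids, 6.75 CPM in trisomy 2L and 3.75 CPM in MSL2-trisomy 2L, and 2.84, 49.2 and 62.9 CPM in diploid females, metafemales and MSL2-metafemales of the other table. The wide range of Vha44 was thus mostly that of r16412, high in 4 columns of both sexes and low in the other 6. The higher Vha44 with MSL2 in females was in r16414, which had 3.90 CPM in trisomy 2L females and 41.5 CPM with MSL2, and 6.537 CPM in metafemales and 54.8 CPM with MSL2. In trisomy 2L males r16414 had 6.75 CPM without and 12.2 CPM with MSL2, and r16411 had 0.305 and 22.1 CPM. Each transcript that starts at the upstream position was therefore higher with MSL2 in all 3 genotypes. In females, though, r16411 was low, at 2.88 CPM in MSL2-trisomy 2L and 1.91 CPM in MSL2-metafemales. By contrast, r16412 was lower with MSL2 in both sexes of trisomy 2L and not in metafemales. Vha44 lies on 2R, the arm that carries the MSL2 transgenes, so the paternal stock and MSL2 cannot be told apart here.

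VhaSFD showed a smaller male form. Its transcript r10976 had 30.9, 20.7, 21.8 and 11.1 CPM in the 4 male columns (9.84%, 4.41%, 4.57% and 6.30% of the gene) and 0.309 to 1.12 CPM in the female columns. Transcripts with the same ends, such as r10976 and the main form r10977, are told apart only by their exons, and the counts assigned to them depend on the assembly of the reads.

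**Figure D5:**
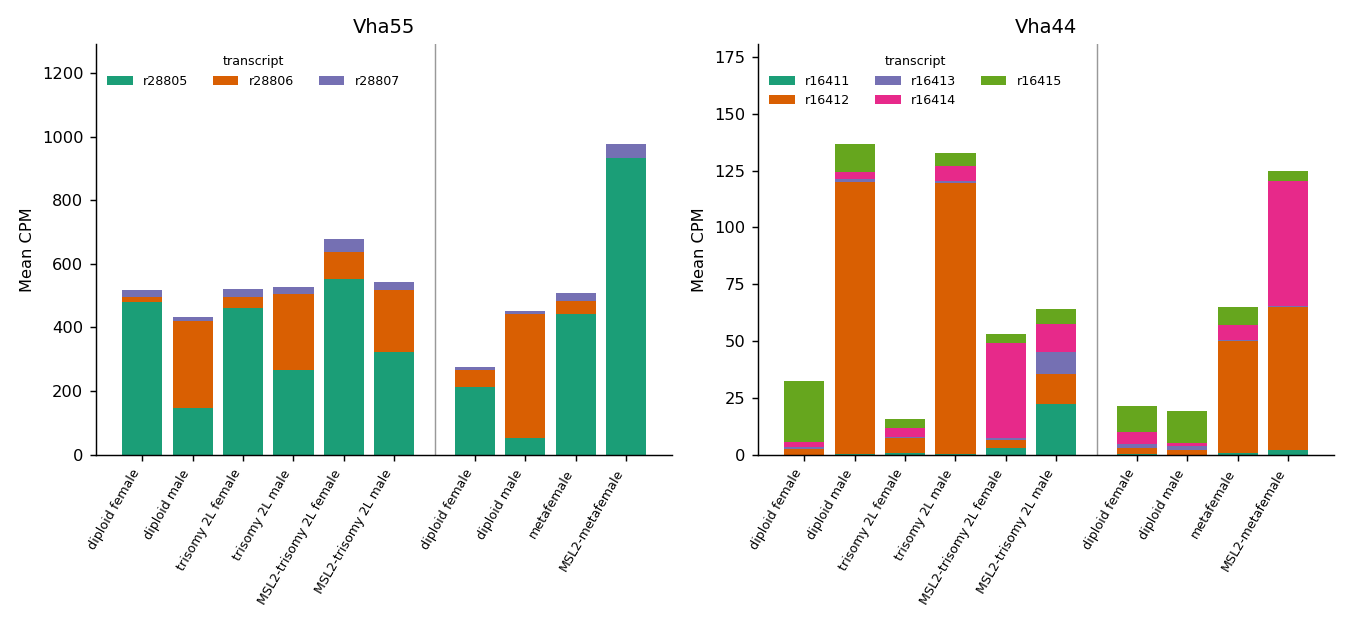
Mean CPM of each transcript of Vha55 and Vha44, stacked to the level of the gene, in the 10 group columns, with the vertical line between the tables of trisomy 2L and of metafemales. In Vha55 the orange form r28806 is large in the male columns, up to 391 CPM. In Vha44 the pink form r16414 is larger with MSL2 in each genotype, reaching 41.5 and 54.8 CPM in females.

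Other genes of the pathway were taken from lists. The Ragulator and Rag GTPases, which sit with the V-ATPase on the lysosome and relay amino acid signals to TOR, had 6 of 7 listed genes in the tables. At least 1.5-fold lower were 4 in trisomy 2L females, 5 in males and 4 in metafemales, against 22.5%, 32.4% and 32.1% of all genes, and 0 were higher. Their medians were -0.61, -0.80 and -0.81, against -0.05, -0.17 and -0.21 for all genes, and 5 of the 6 have transcripts under 1000 nt. With MSL2 their medians were -0.48 in trisomy 2L females (1 lower), 0.04 in males and -0.01 in metafemales. Lysosomal enzymes and membrane proteins, 12 in all, had medians of -0.23 (3 higher, 2 lower), -0.20 (2 and 2) and -0.59 (1 and 6) in the same order, and with MSL2 of -0.56 (1 and 5), 0.26 (1 and 1) and -0.29 (0 and 2). In metafemales, 32.1% of all genes were lower and 18.4% higher, and the median of all genes was -0.21. With MSL2 in trisomy 2L females, trisomy 2L males and metafemales, 10.8%, 8.38% and 10.3% of all genes were higher. As much lower were 19.1%, 8.34% and 13.3%, and the medians of all genes were -0.12, 0.02 and -0.10.

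The assembly and regulation list, 5 genes with the Rabconnectins and the assembly factor CG5969, had medians of -0.10 (0 higher, 2 lower), -0.27 (0 and 1) and 0.50 (2 and 0), and with MSL2 of 0.20, -0.06 and -0.09 with 1 gene higher in metafemales. Mitf, a transcription factor that in flies promotes V-ATPase gene expression, had 51.1, 27.8, 15.3, 23.1, 15.8 and 25.6 CPM, and 12.7, 18.3, 22.9 and 19.4 CPM. Within its own table, Mitf was lower than diploid in trisomy 2L and higher in metafemales. Its diploid female means differed between the tables, at 51.1 and 12.7 CPM. The trisomy 2L female and metafemale means both lay between these 2 values, and the part of that gap in the directions was not tested. The transporters that work beside the pump, 6 genes of which 5 or 6 passed the minimum, had medians of -0.13 (2 higher, 1 lower), -0.18 (2 and 2) and 0.79 (4 and 1), and with MSL2 of -0.13 (1 and 0), 0.21 (0 and 1) and -0.02 (1 and 0). In metafemales, 4 of the 5 transporters compared were above diploid and ClC-b was below, at 36.7 against 55.6 CPM. Of all genes, 25.4%, 23.1% and 18.4% were higher in trisomy 2L females, trisomy 2L males and metafemales, and 22.5%, 32.4% and 32.1% lower. With MSL2 in the same order, 10.8%, 8.38% and 10.3% were higher and 19.1%, 8.34% and 13.3% lower. Both lists are small, and several of their counts lie near these shares.

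Summed levels of tissue markers also differed between groups, and their part in the Vha ratios was not tested. Of all genes, 25.4%, 23.1% and 18.4% were higher in trisomy 2L females, trisomy 2L males and metafemales, and 22.5%, 32.4% and 32.1% lower. The medians of all genes were -0.05, -0.17 and -0.21. The lists are small, and some of the counts below lie near these shares. Malpighian tubule markers, 6 of 6 found, summed to 399, 258, 302, 381, 324 and 259.5 CPM, and to 145, 68.1, 249 and 224 CPM. In trisomy 2L females, trisomy 2L males and metafemales, 1, 2 and 4 were higher and 3, 2 and 0 lower. The medians were -0.59, 0.01 and 1.09. Uro alone had 314, 187, 221 and 306 CPM in the first 4 columns. Midgut copper cell markers, 3 of 3, summed to 296, 237, 531, 503, 667 and 501 CPM, and to 241, 206, 354 and 388 CPM. In each aneuploid genotype 2 were higher, and 1 was lower in trisomy 2L of either sex (medians 1.16, 1.23 and 0.78). Body wall muscle markers, 5 of 5, summed to 11956, 9438, 18495, 20743, 29808 and 15921 CPM, and to 5570.5, 3956, 20989.6 and 23289 CPM. In trisomy 2L females, males and metafemales 3, 4 and 5 were higher (medians 0.74, 1.23 and 1.601). Fat body markers, 5 of 5, summed to 79022, 68454, 111848, 94516, 119739 and 93145 CPM, and to 55307, 22854, 55997 and 62323 CPM. In the same order 3, 2 and 2 were higher and 0, 1 and 2 lower (medians 0.59, 0.41 and 0.11). None of these lists was at 0 in any column.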

How the data were processed

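The authors mapped reads to the Release 6 genome with HISAT2, assembled and counted transcripts with StringTie, divided counts by mapped reads to give CPM, used ComBat against batch differences, dropped values of 0 or less and took group means; the 2 deposited tables hold these mean CPM values. Columns of the authors' ratios between groups were not used, and 0 columns of single samples were left out. The diploid means, which come from libraries that are not samples of the series, and the MSL2-metafemale means, whose total is above that of every other column, were taken as CPM values as deposited.

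Transcripts were summed per gene and ratios of means taken where both means existed and averaged at least 1 CPM. Higher and lower mean at least 1.5-fold. Full values were given for members with 10 CPM in any group or past 1.5-fold in any of 7 comparisons, and the diploid comparison of the metafemale table was added after seeing the data. Transcript lengths and coordinates came from Ensembl BDGP6 transcripts with the same ends, found for all 72 Vha transcripts and 98.7% and 98.9% of all transcripts of the tables. The members and lists were chosen with earlier results of these data known. Ratios were checked on simulated data. The 6 alternatives were equal column totals, centring, no minimum, 10 CPM, a pseudocount of 1 CPM and transcripts listed in every group. Scripts ran in Python 3.11.15 with pandas 2.3.3 and numpy 2.4.6, and figures were drawn with matplotlib 3.10.9.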

Additional observations from a re-analysis of the deposited data

Results flagged for a closer look

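Vha44, the C subunit gene, had log2 ratios of opposite sign between groups under the same comparison. With MSL2 it was at 1.77 in trisomy 2L females and -1.05 in trisomy 2L males, a difference of 2.82. The male value also lay opposite to that of metafemales, at 0.95, with a difference of -1.996. Against diploid females it was at -1.06 in trisomy 2L and 1.597 in metafemales, a difference of -2.66. None of these differences was tested, since each group has 1 mean.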

How the results depend on the processing

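No paired analysis was possible because the tables hold 1 mean for each group, and for the same reason no library could be left out. Of 144 values of counts and medians under the 6 alternatives, 126 were counted as near the value reported, as were 348 of 357 values of single genes. For a median, near meant inside a 95% rank interval over the Vha genes. Such an interval treats genes as replicates and is wide, so these counts do not show that the medians were stable. Of 48 medians, 5 changed sign, all from a small value. Only that of MSL2-metafemales at equal column totals was not counted as near. The trisomy 2L male median was counted as near even at 0.28, against -0.06 reported. The trisomy 2L female median became 0.04 when centred. The trisomy 2L male median became 0.11 when centred, 0.04 at 10 CPM and 0.28 with transcripts listed in every group. With equal column totals the median of MSL2-metafemales against metafemales was -0.22. Centred on all genes, the count lower in metafemales was 0 and the diploid male/female median of the trisomy 2L table -0.21. With no minimum, 8 Vha genes were lower in trisomy 2L females and 2 in MSL2-metafemales. With a minimum of 10 CPM, 5 were lower in trisomy 2L males, 1 higher and 1 lower with MSL2 in males, and 4 and 3 higher in diploid males of the tables. With a pseudocount of 1 CPM, 1 was lower with MSL2 in trisomy 2L males and 1 in diploid males. With transcripts listed in every group, 1 was lower in trisomy 2L males, 1 lower with MSL2 in trisomy 2L females, 1 higher and 1 lower with MSL2 in males, and 2 and 3 higher in diploid males of the tables. The last alternative leaves out most male-limited genes, which have no mean in some female columns. Without values of single libraries, no ratio can be set against the spread of larvae or the counting error, and the diploid gap between tables is the only measure of how far means of like larvae can lie apart.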
